A study of Mus musculus with 12 samples.

Results

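The 7 genes described here encode the Dlgap proteins (Dlgap1, Dlgap2, Dlgap3 and Dlgap4, also called SAPAPs) and the Shank proteins (Shank1, Shank2 and Shank3), scaffolds of the excitatory postsynapse. They were chosen by symbol from a gene table with 21523 protein-coding genes, with the positions of c-Fos peaks around them already known. Those positions are therefore given as a description and without a test. Of 3294 peaks on assembled mouse chromosomes, 34 (1.03%) had their midpoint inside or within 100 kb of a member, and all 34 lay inside the genes.

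The study profiled c-Fos binding by CUT&RUN, in which an antibody guides a nuclease that releases the bound DNA for sequencing. The nuclei came from hippocampal CA1 of C57BL/6 mice aged 3 to 4 weeks, and 50000 were used per reaction. All mice, controls included, had the genotype CaMK2a-Cre/+; LSL-Sun1-GFP/+, in which Cre driven by CaMK2a, a gene of excitatory neurons, switches on a GFP tag of the nuclear envelope that was used for sorting. The 12 samples fell into 4 groups of 3 replicates, which were kainic acid with c-Fos antibody, kainic acid with rabbit IgG, phosphate buffered saline (PBS) with c-Fos antibody, and PBS with IgG, each 2 to 3 h after injection. Kainic acid is a glutamate receptor agonist that drives strong firing. The replicates are described as biological, and how many animals each held is not stated in the sources used. The values analysed here were a single list of c-Fos peaks after kainic acid, called against IgG and described as replicated. It holds positions without signal or score, so read depth and spread between replicates are unknown, and no comparison of kainic acid with PBS was made.

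At an excitatory synapse, Dlgap proteins join the layer of PSD-95-type proteins (MAGUKs), which hold glutamate receptors at the membrane, to the deeper layer of Shank proteins. Shank proteins in turn bind Homer, a partner of metabotropic glutamate receptors, and cortactin, a regulator of the actin skeleton of dendritic spines. c-Fos is a subunit of AP-1, an activity-induced transcription factor that binds the word TGACTCA and often sits at enhancers far from transcript starts.

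For Dlgap1, the RefSeq promoter table used here (GRCm38.p6) held 2 transcript starts, both on the plus strand, which sets the direction of the gene in what follows. The gene table lists 31 transcripts of Dlgap1, so other starts may exist, and the only start held for Dlgap3 lies 4.58 kb inside that gene. Distances to a listed start below refer to this table alone. The 250 bases before each are shown because the peaks of Dlgap1 are measured from these starts. The upstream start is at the low-coordinate end of the gene and the internal start lies 593 kb further along, at 69.5% of its length. The sequences cover chr17:69968823-69969072 and chr17:70561497-70561746.

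Dlgap1 upstream start: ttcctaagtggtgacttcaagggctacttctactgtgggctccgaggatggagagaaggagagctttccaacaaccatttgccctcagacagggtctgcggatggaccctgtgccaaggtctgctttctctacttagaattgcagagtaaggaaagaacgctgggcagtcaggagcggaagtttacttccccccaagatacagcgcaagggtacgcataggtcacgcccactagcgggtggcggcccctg

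Dlgap1 internal start: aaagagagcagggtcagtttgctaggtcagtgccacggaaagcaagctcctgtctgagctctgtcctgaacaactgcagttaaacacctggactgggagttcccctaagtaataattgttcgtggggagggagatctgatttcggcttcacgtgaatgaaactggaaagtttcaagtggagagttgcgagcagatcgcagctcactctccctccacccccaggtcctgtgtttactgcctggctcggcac

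No base is in capitals because none of the words searched was present. The search, on both strands, used TGACTCA, its looser form TGANTCA (which includes TGACTCA), the cAMP response element TGACGTCA, and CAGCTG and GGGCGG as comparison words. Among 21045 listed promoters of protein-coding genes, 4.09% held TGACTCA, 6.17% TGANTCA, 1.94% TGACGTCA, 12.2% CAGCTG and 43.1% GGGCGG in the same window. A promoter sequence was matched for 4 of the 7 members, 5 sequences in all, and none of the 5 held either AP-1 word or TGACGTCA. Dlgap4 held CAGCTG and GGGCGG, and Shank3 held GGGCGG, in windows with 74.0% and 82.4% G and C, against 55.2% and 52.4% at the 2 starts of Dlgap1 and a median of 55.6% over all listed promoters.

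Of the 5 member starts in the promoter table, 0 had a peak midpoint within 10 kb, a distance at which 2.89% of all 21045 starts had one, so 0 of 5 is near the background. Within 100 kb, 2 of the 5 had a peak, both in Dlgap1, beside 18.7% of all starts. The nearest peak lay 35.5 kb downstream of the upstream Dlgap1 start and 27.4 kb downstream of the internal one. For Dlgap4, Dlgap3 and Shank3 the nearest peak was 253, 380.0 and 563 kb from the listed start. The letters of the peaks themselves were not analysed here, so whether they hold an AP-1 word is not reported.

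Peaks were unevenly shared among the members. Dlgap1, which encodes the PSD-95-binding scaffold also known as GKAP, held 26 of the 34 peaks (76.5%). Dlgap2 held 6, Shank1 and Shank2 held 1 each, and Dlgap3, Dlgap4 and Shank3 held 0. The share of members with a peak inside was thus 4 of 7 (57.1%), beside 5.52% of all protein-coding genes, whose median length was 17.4 kb. With 100 kb added on each side the members' count was again 4, beside 21.8% of all protein-coding genes. The share was higher in longer classes of genes. Among genes of at least 500 kb, the class of Dlgap1 and Dlgap2, 63.4% did. In the class of Shank2 (200 to 500 kb) the share was 36.2%, in that of Dlgap4 (100 to 200 kb) 18.7%, and in that of Dlgap3, Shank1 and Shank3 (50 to 100 kb) 8.74%.

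**Figure D1:**
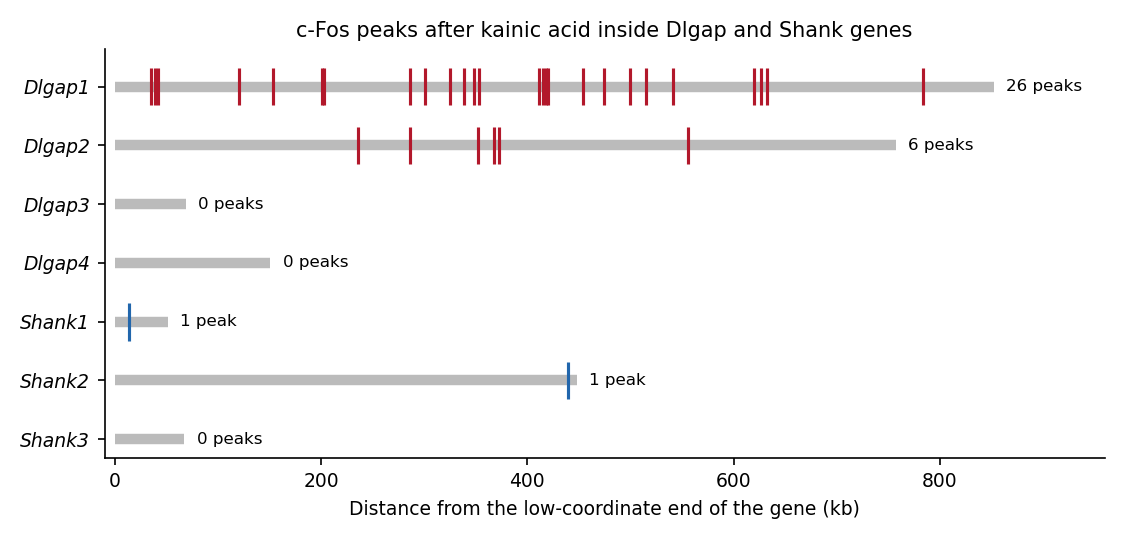
Peaks (vertical ticks at the midpoints) inside the 7 genes (grey bars, to scale), with the distance from the low-coordinate end of each gene in kb on the horizontal axis. Dlgap genes are red and Shank genes blue; 26 ticks spread over Dlgap1 and 6 over Dlgap2, while Shank1 and Shank2 carry 1 each and the other 3 genes none.

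Dlgap1 covers 852 kb of chromosome 17, from 69969073 to 70821413 on mm10. Its 26 peaks (exact Poisson 95% interval 17 to 38.1, for counting error only and treating peaks as independent) came to 3.05 per 100 kb (interval 1.99 to 4.47). Together they covered 44473 bp, or 5.22% of the gene. Peaks were sparse on either side. The stretch of equal length below the gene held 1 peak (0.117 per 100 kb) and the one above it 2 (0.235 per 100 kb). The next peak outside lay 199 kb before the upstream end, and on the other side 142 kb beyond the gene, 10.3 kb from Myl12b, which encodes a myosin regulatory light chain. No peak lay in the 100 kb flanks. Dlgap1 alone held 21.1% of the 123 peaks on chromosome 17.

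No protein-coding gene held more deposited peaks than Dlgap1. Its 26 peaks stood beside a median of 1 (quartiles 0 and 2) over the 227 genes of at least 500 kb. Of these genes 16 had 6 or more, a number that counts both Dlgap1 and Dlgap2. Per 100 kb of length Dlgap1 had rank 2 in that class, below Syt1, which encodes a synaptic vesicle protein that senses calcium (4.09 per 100 kb). Among the 2425 genes of at least 100 kb it had rank 4, below Syt1, Wdfy2 (3.23) and St6galnac5 (3.08). The last 2 names were chosen after their values were seen. These values depended on how peaks were counted. With only peaks at least as wide as the list median Dlgap1 held 17, as many as Syt1, and had rank 10 by density among genes of at least 100 kb. With peaks 10 kb or less apart counted once, it held 16 and had rank 12. Pooled over all protein-coding genes the density was 0.167 per 100 kb, and over genes of at least 500 kb 0.199. Dlgap1 made up 0.0814% of the summed length of protein-coding genes and held 1.51% of the 1718 peaks inside them.

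**Figure D2:**
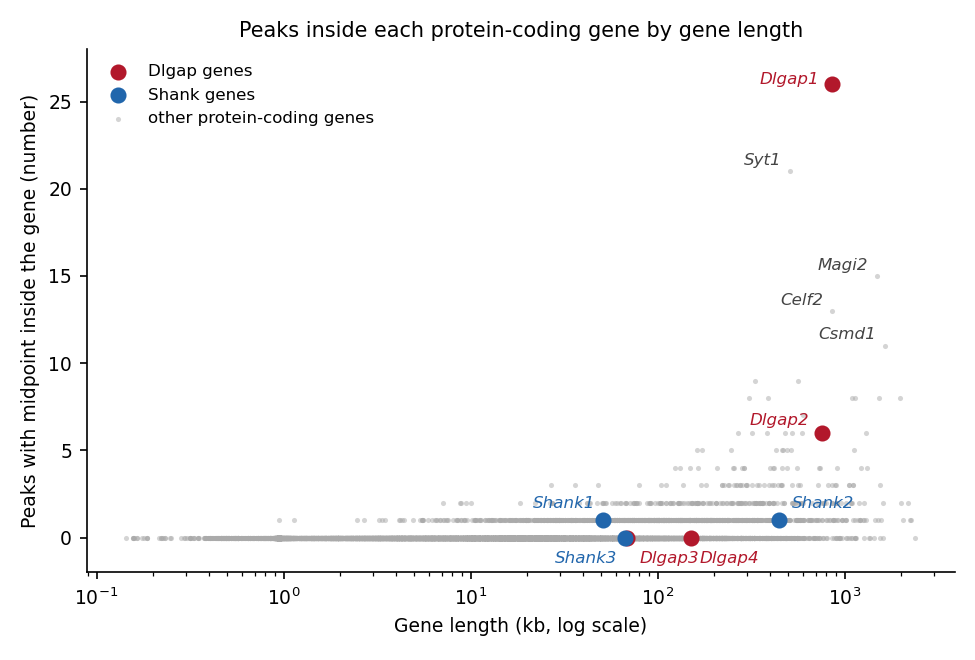
Number of peaks with midpoint inside each of 21521 protein-coding genes (vertical axis) against gene length in kb (horizontal axis, log scale), with Dlgap genes in red, Shank genes in blue and other genes in grey. Dlgap1 is highest with 26 peaks, and Dlgap2, of similar length, has 6.

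Along Dlgap1, peaks began 35.5 kb into the gene and ended 68.0 kb before its far end. The first 3, at 35.5, 38.9 and 41.4 kb, formed a group from 70003036 to 70010903, and the first of these was the widest peak of the gene (3126 bp). Single peaks followed at 120.5 and 153 kb, and a pair at 201 and 203 kb. After a stretch of 82.5 kb without a peak, the densest section of the gene began, with peaks at 286, 301, 325, 339, 348, 353, 411, 415, 418, 419.7, 454, 474, 499.8, 515 and 541 kb. It held 15 of the 26 peaks. The 4 peaks from 411 to 419.7 kb were the largest group, on chromosome 17 from 70378551 to 70389426, and 2 of them were separated by only 400 bp of sequence outside peaks. Another group of 3 lay at 620.1, 627 and 632 kb (70588646 to 70601786), past the internal start. A single peak at 784 kb ended the series, after the longest stretch without one (153 kb, 17.9% of the gene). In 10 equal bins of 85.2 kb, the gene held 3, 2, 2, 4, 6, 3, 2, 3, 0 and 1 peaks. Of the 26, 17 lay before its middle and 9 after it.

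**Figure D3:**
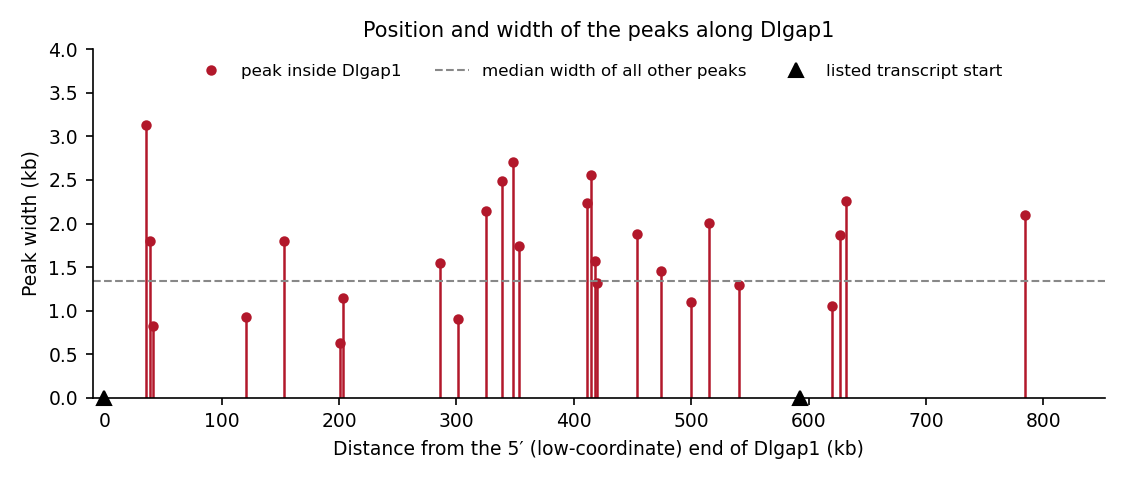
Width of each of the 26 peaks of Dlgap1 in kb (vertical axis) at its distance in kb from the 5′ end of the gene (horizontal axis), with the 2 listed transcript starts as triangles and the median width of all other peaks (1339 bp) as a dashed line. Groups of 3 or 4 peaks stand around 38.6, 347, 416 and 626 kb and a pair around 202 kb, and no peak is at either start.

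The spacing of neighbouring midpoints was uneven. The 25 distances had a median of 15.4 kb (quartiles 4.69 and 34.8 kb) and ran from 1.95 to 153 kb. Of them 10 were 10 kb or less and 5 were over 50 kb. Those 5 summed to 451 kb of the 749 kb between the outermost peaks. An even spread of 26 peaks would put 31.6 kb between them, and the observed standard deviation was 36.1 kb around a mean of 30.0 kb. The standard deviation divided by the mean was 1.2 in Dlgap1. In Syt1, Magi2, Celf2 and Csmd1, described below, it was 1.0, 1.28, 0.959 and 1.02, so uneven spacing was not particular to Dlgap1. With peaks 10 kb or less apart joined, Dlgap1 had 16 groups, of which 11 were single peaks and 5 held 2 to 4 peaks. The 15 peaks in shared groups had a median width of 1803 bp (624 to 3126 bp) and the 11 single ones 1544 bp (902 to 2143 bp), with ranges that overlap.

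Genes with 10 or more peaks inside made up 0.0279% of protein-coding genes. Of the 4 described here beside Dlgap1, Syt1 was most like Dlgap1 by number and by the spacing of the deposited peaks. Dlgap1 had 26 peaks and a median distance of 15.4 kb, and Syt1 had 21 and 14.3 kb over its 513 kb. Both also had a similar share of distances of 10 kb or less, 40.0% in Dlgap1 and 35.0% in Syt1. Celf2, which encodes an RNA-binding protein, is almost as long as Dlgap1 (852 kb for Dlgap1, 857 kb for Celf2) but held 13 peaks at 1.52 per 100 kb, with a median distance of 26.3 kb. Magi2, a synaptic scaffold gene of 1485 kb, held 15, and Csmd1 held 11. The median distance was 31.5 kb in Magi2 and 92.9 kb in Csmd1. No distance in Csmd1 was 10 kb or less. These medians depended on how peaks were counted. With gaps of 5 kb or less merged, the median was 26.0 kb in Dlgap1, 20.0 kb in Syt1 and 31.6 kb in Celf2, with their order unchanged. With only peaks at least as wide as the list median, it was 28.3 kb in Dlgap1, 12 kb in Syt1 and 27.3 kb in Celf2. Dlgap1 was then slightly above Celf2.

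**Figure D4:**
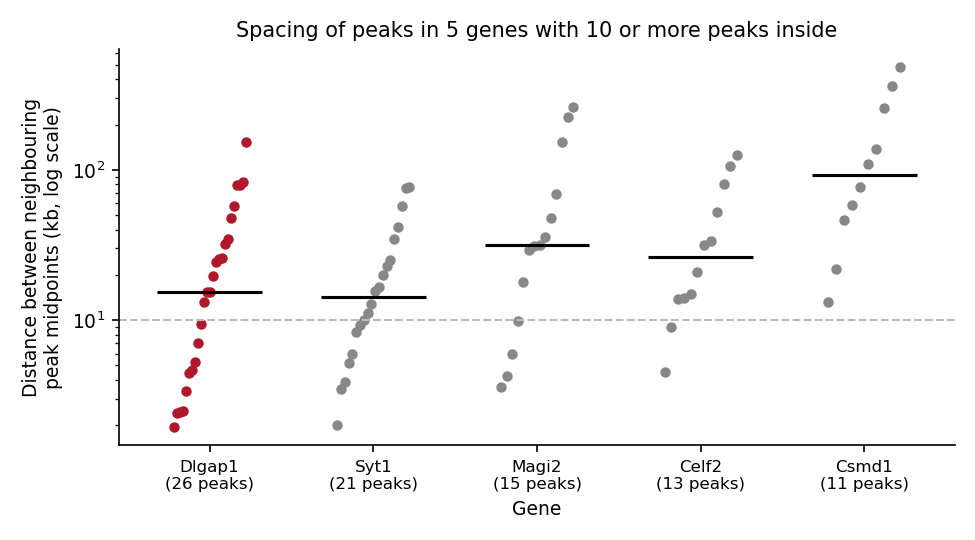
Distances between neighbouring peak midpoints in kb (vertical axis, log scale) for Dlgap1 (red) and 4 other genes with 10 or more peaks inside (grey). Each point is 1 distance, sorted by size within a gene, black bars are medians and the dashed line marks 10 kb; the median of Dlgap1, 15.4 kb, is close to the 14.3 kb of Syt1 and lower than in the other 3 genes, with peaks counted as deposited.

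Dlgap2, the family member nearest to Dlgap1 in length, covers 758 kb of chromosome 8 (14095776 to 14853426). It held 6 peaks (Poisson interval 2.2 to 13.1), or 0.792 per 100 kb. Peaks started deep inside the gene, at 236 kb from the low-coordinate end, followed by 286, 352, 368, 373 and 556 kb. The peaks at 368 and 373 kb, 5.40 kb apart, were the only ones 10 kb or less from a neighbour, and the second of these was 3277 bp wide (14467189 to 14470465), the widest of all 34. The first 31.2% and the last 26.6% of the gene held none. The next peaks outside were 643 kb beyond the high end and 1705 kb below the low end. By density Dlgap2 had rank 11 of the 227 genes of at least 500 kb, and 13 by number, a place it shared with 3 other genes. The Poisson interval per 100 kb was 0.291 to 1.72, for counting error only.

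Shank1 and Shank2, master scaffolds below the Dlgap layer, held 1 peak each. In Shank1 (51.2 kb, chromosome 7, 44308916 to 44360094) the peak spanned 44321451 to 44323674 and was centred 13.6 kb from the low-coordinate end. It was 2224 bp wide and covered 4.35% of this short gene, and the next peaks outside lay 828 and 830.2 kb from the gene. Over so short a gene this single peak gave 1.95 per 100 kb (Poisson interval 0.0495 to 10.9). In Shank2 (448 kb, chromosome 7, 143978077 to 144426043) the peak spanned 144417155 to 144418312, 8.31 kb inside the high-coordinate end and 439.7 kb from the other. Shank2 had 0.223 peaks per 100 kb, beside 0.206 pooled over genes of 200 to 500 kb. The next peak outside Shank2 was 152 kb beyond the high end, 0.434 kb from Fadd, which encodes an adaptor of death receptors.

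Dlgap3, Dlgap4 and Shank3 had no listed peak inside or within 100 kb. Dlgap3 is the family member known from the striatum, where its loss in mice leads to excessive grooming, and Shank3 is a gene whose loss is tied to autism in people. For Dlgap3 (68.7 kb, chromosome 4) the nearest peak lay 375 kb below the gene, inside AU040320. For Dlgap4 (151 kb, chromosome 2) it was 209.6 kb above the gene, inside Ndrg3, and for Shank3 (67.2 kb, chromosome 15) 502 kb above. Among genes of 50 to 100 kb, 26.4% had a peak inside or within 100 kb, and among those of 100 to 200 kb 34.9%. The list holds only peaks past an unknown threshold, so weaker binding near these 3 genes was not detectable. Peaks closest to the 100 kb limit were the Shank2 peak on the inside (8.31 kb within the gene) and the peak 142 kb beyond Dlgap1 on the outside.

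Some member peaks also lay inside long non-coding RNA genes. The group of 3 at 620.1 to 632 kb of Dlgap1 fell within Gm46581 (chromosome 17, 70585309 to 70607121), a gene of 21.8 kb on the minus strand, opposite to Dlgap1. Its peaks were 6.46, 10.9 and 17.9 kb from the Gm46581 start. The Shank2 peak fell within Gm34621 (chromosome 7, 144415066 to 144419511), also on the minus strand, 1.78 kb from its start. The other 30 member peaks overlapped no other listed gene. Exons and introns were not given in the gene table used here, so peaks are placed only as inside or outside a gene.

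Peak width, which played no part in choosing the genes, had a higher median in the members than in other genes. The 34 member peaks had a median of 1712 bp (quartiles 1301 and 2204 bp, range 624 to 3277 bp), and the 1684 other peaks inside protein-coding genes had 1375 bp (quartiles 1127 and 1743 bp). Of the member peaks, 23 (67.6%, exact binomial 95% interval 49.5 to 82.6) were wider than the list median of 1341.5 bp, and of the other peaks inside genes 53.3%. At 2 kb or more were 12 of the 34 (35.3%, interval 19.7 to 53.5) and 15.7% of the other peaks inside genes. The ranges overlapped widely. The 26 peaks of Dlgap1 had a median of 1772.5 bp, the 6 of Dlgap2 1666 bp and the 21 of Syt1 2027 bp. In Celf2 the median was 1810 bp, in Magi2 1605 bp and in Csmd1 1234 bp. Widths like those in Dlgap1 were thus not particular to the members. Peaks of 1 gene are not independent, and 26 of the 34 came from Dlgap1. Both intervals treat peaks as independent, so they may be too narrow and do not serve to compare members with other genes. No replicate values exist, so no test was made, and width was not read as binding strength.

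Other postsynaptic genes were described in the same way, from 39 genes listed by their role. Of these, 15 (38.5%) had a peak inside, with 54 peaks in all or 0.494 per 100 kb of their summed length. Their median length was 107 kb, but they included genes of 3.88 and of 1973 kb, so no single length class is their background. Of all genes of 50 to 100 kb 8.74% had a peak inside, and of those of 100 to 200 kb 18.7%. The share was 36.2% at 200 to 500 kb and 63.4% at 500 kb or more. For the 7 Dlgap and Shank genes the density was 1.42 per 100 kb, for the 4 Dlgap genes alone 1.75 and for the 3 Shank genes 0.353. Dlgap1 carried this value: the 6 members other than Dlgap1 together had 8 peaks or 0.518 per 100 kb, and the 3 other Dlgap genes 0.614. The median number inside was 1 for the 7 members and 0 for the 39 others, as for all protein-coding genes.

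Among the MAGUKs, which bind Dlgap proteins, only Dlg2 (PSD-93) had peaks inside, 8 over 1973 kb or 0.405 per 100 kb. Dlg1 had its nearest peak 64.4 kb away, and Dlg4, which encodes PSD-95, and Dlg3 had theirs 606 and 514 kb away. Of the Homer genes, which act next to Shank, Homer1 had 1 peak inside, Homer2 had 1 at 24.4 kb and Homer3 none within 566 kb. Of 10 further genes for binding partners of the Shank and Dlgap proteins, Baiap2 (IRSp53, an actin regulator) had 1 inside, and 5 had 1 or more inside or within 100 kb, beside 21.8% of all protein-coding genes. These included Lzts3 at 15.4 kb and Cttn, which encodes cortactin, at 18.0 kb on its low-coordinate side. A peak within 100 kb of several genes was counted for each, member peaks included. Cttn lies on chromosome 7, as Shank2 does, so the peak nearest to it may be the Shank2 peak already described.

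Of 12 other scaffold and signalling genes 5 had a peak inside, led by Magi2 with 15 and Sorbs2 with 3. Magi1, of 608 kb, held none. Receptors and adhesion genes, of 14.7 to 911 kb with a median of 358 kb, had a peak inside in 7 of 10. The share was 36.2% among all genes of 200 to 500 kb and 63.4% among those of at least 500 kb. Gria1, an AMPA receptor subunit, held 6 (1.88 per 100 kb), and Grin2a and Grin2b, NMDA receptor subunits, held 5 each (1.17 and 1.09 per 100 kb). None of the 39 genes reached the 3.05 per 100 kb of Dlgap1.

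**Figure D5:**
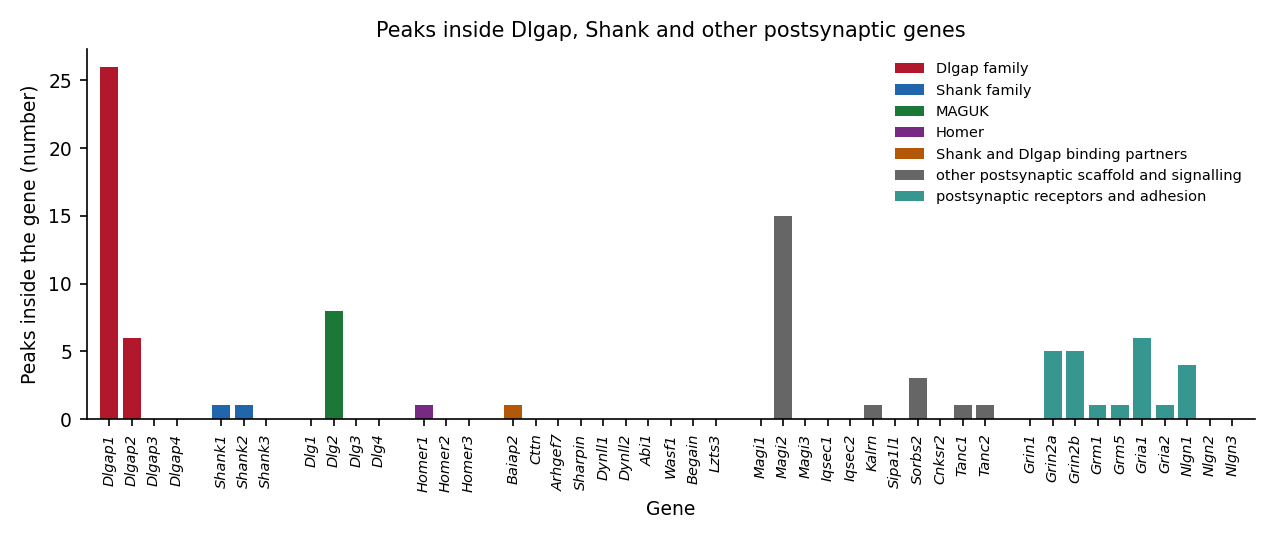
Number of peaks inside each Dlgap and Shank gene and each of 38 other postsynaptic genes (vertical axis), with bars coloured by group and genes in list order. Dlgap1 is highest with 26, followed by Magi2 with 15 and Dlg2 with 8; genes without a bar held 0.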

How the data were processed

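Only 1 processed file was analysed, a peak list deposited by the authors with 3 columns (chromosome, start and end) and no header or score. The submitters' processing notes name the tools SEACR 1.1, bedtools 2.27.1, Trimmomatic 0.36 and Bowtie2 2.2.9, and the genome builds mm10 and sacCer3. What each was used for, the peak threshold and how replicates were combined are not stated in any source used here. The list was treated as belonging to the whole group of c-Fos samples after kainic acid. Of 3295 peaks, 1 on an unplaced sequence was left out. Positions are 1-based on mm10.

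Gene extents came from a RefSeq table of GRCm38.p6, the assembly of mm10. Genes starting below 3000000 were left out, as positions on unplaced scaffolds. A peak belonged to a gene when its midpoint lay inside it, and a peak in overlapping genes counted for each. Peaks per 100 kb are the count divided by gene length. Promoter sequences are RefSeq's, GRCm38.p6, cut to the 250 bases before the start. Counting was tested on simulated peaks. Python 3.11.15 with pandas 2.3.3 was used.

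The members and gene lists were chosen with earlier results of these data known. All 7 members are named, with 5 of the 6 genes holding 10 or more peaks (Dlgap1 among them) and, per list, up to 3 genes with most or nearest peaks; Magi1, Dlg3, Dlg4 and a few others were added after their values were seen. Some genes are counted but not reported here by name. The planned AP-1 search in peaks needs the genome sequence and was not run. No test was made.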

Additional observations from a re-analysis of the deposited data

How the results depend on the processing

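No paired analysis was possible because the list has no values per replicate, and for the same reason no replicate could be left out. The AP-1 share and its alternatives were not run. With only peaks at least as wide as the median, Dlgap1 held 17 peaks (1.99 per 100 kb), the same number as Syt1, and the median distance between its peaks was 28285 bp, since fewer peaks were counted. With peaks 10 kb or less apart counted once, an alternative chosen after seeing the data, Dlgap1 held 16 (1.88 per 100 kb) and Syt1 14. Dlgap1 then had rank 12 by density among 2425 genes of at least 100 kb, and rank 10 with the wider peaks. Merging peaks with gaps of 5 kb or less gave a median distance of 26000.5 bp. Merging gaps of 500 bp or less (25 peaks in Dlgap1), leaving out peaks over 5 kb (26) and counting any overlap (26) moved no value by over 1.5 times. The number of members with a peak inside or within the window was 3 with the wider peaks, which leaves out the Shank2 peak, and 4 in the 6 other alternatives, windows of 10, 50 and 200 kb included. Sequencing depth, unknown here, limits which weaker sites the list could hold.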
